A study of Caenorhabditis elegans with 2 samples.

Results

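The small nucleolar RNA (snoRNA) genes of Caenorhabditis elegans were described as a group in a chromatin immunoprecipitation and sequencing (ChIP-seq) study of PHA-4. The members were all nuclear genes of biotype snoRNA in the Ensembl annotation of WBcel235, the assembly also called ce11, and they numbered 346 of 46890 annotated nuclear genes. Of these, 169 lay wholly inside introns of 149 protein-coding host genes, 124 overlapped no protein-coding gene, and 53 overlapped an exon of a protein-coding gene. The 124 are called between genes here, although only 108 of them were also free of overlap with annotated genes of other types. The genes were 54 to 344 bp long, with a median of 130 bp.

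The samples were whole L4 larvae, 48 h old, with 2 biological replicates forming 1 group, so no conditions could be compared. All worms were of strain RW12220, in which a CRISPR insertion placed a TY1::EGFP::3xFLAG tag in the endogenous pha-4 gene on chromosome V, and they had been synchronised as starved L1 larvae after bleaching. Chromatin was sheared by sonication to 200 to 800 bp. The sample descriptions name an antibody against GFP, while the antibody field names pha-4. Whole animals pool the chromatin of every cell type, so a peak carries no information on the cells it came from. The deposited lists held 2920 nuclear peaks for both replicates together, 1555 in a stricter joint list, 2114 for replicate 1 and 1643 for replicate 2. The signal of a peak is the authors' own value, on a scale set per list, and is used here only to describe and rank peaks within that list. Read depth is unknown, and control reads were not used here, so local background at each peak could not be measured anew.

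SnoRNAs are short nuclear RNAs that guide chemical modification of ribosomal and spliceosomal RNA. Box C/D snoRNAs direct ribose methylation by fibrillarin, and box H/ACA snoRNAs direct pseudouridylation by dyskerin. Many snoRNAs are released from spliced introns and so depend on the promoter of their host, while others have promoters of their own. In C. elegans some snoRNA genes, including intronic ones, carry box A and box B upstream of the RNA. These elements are best known from inside tRNA genes, where they recruit the factors that position RNA polymerase III. PHA-4 is the worm FoxA factor required to specify the pharynx, and it recognises forkhead motifs.

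The sequences that follow show what lay under 6 of the 8 strongest snoRNA peaks, with a pair of snoRNA genes without a peak for contrast. Each runs 5′ to 3′ along the strand of the snoRNA gene, from 90 bases before its start through its first 20 bases, and was read from the RefSeq copy of WBcel235. Capitals mark a box A-like match (TGGCNNAG) or a box B-like match (GTTCGANNC). The summit of a peak is its highest point, and its offset is negative upstream of the snoRNA start. The first 6 had summits at offsets of -34, -88, -59, -44, -51 and -58 bp, in the order shown. They lie at chrV:8500489-8500598 (plus strand), chrV:12303618-12303727 (plus), chrII:11960808-11960917 (plus), chrV:11314168-11314277 (plus), chrV:15873907-15874016 (minus) and chrV:11782902-11783011 (plus). The last 2, in introns of nol-56 at chrV:10350893-10351002 (minus) and of rpl-6 at chrIII:7208523-7208632 (plus), had no summit.
ZK994.7: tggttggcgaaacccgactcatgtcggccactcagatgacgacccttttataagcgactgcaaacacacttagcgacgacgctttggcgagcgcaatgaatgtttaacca
C51F7.3: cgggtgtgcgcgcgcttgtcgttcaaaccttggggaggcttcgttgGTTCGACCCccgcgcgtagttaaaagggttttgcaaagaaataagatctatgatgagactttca
W03C9.9: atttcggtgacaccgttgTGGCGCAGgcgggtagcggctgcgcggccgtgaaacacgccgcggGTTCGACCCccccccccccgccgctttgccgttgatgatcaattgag
T03F7.8: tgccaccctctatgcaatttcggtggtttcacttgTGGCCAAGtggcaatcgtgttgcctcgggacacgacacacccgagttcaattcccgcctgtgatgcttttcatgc
T06C12.16: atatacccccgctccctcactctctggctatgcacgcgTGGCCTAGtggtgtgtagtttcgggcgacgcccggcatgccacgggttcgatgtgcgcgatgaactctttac
F55A11.10: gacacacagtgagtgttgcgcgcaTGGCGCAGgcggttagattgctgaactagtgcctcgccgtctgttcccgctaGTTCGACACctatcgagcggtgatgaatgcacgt
K07C5.18: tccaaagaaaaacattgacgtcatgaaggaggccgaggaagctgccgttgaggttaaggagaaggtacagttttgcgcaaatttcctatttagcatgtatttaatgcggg
R151.11: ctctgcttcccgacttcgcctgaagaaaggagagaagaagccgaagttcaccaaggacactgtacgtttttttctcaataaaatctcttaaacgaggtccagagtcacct

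Of these, W03C9.9 and F55A11.10 held both boxes, with box A first at -72 and -66 and box B first at -27 and -14. T03F7.8 and T06C12.16 held box A only, at -55 and -52, and C51F7.3 held box B only, at -44. ZK994.7, the strongest of all snoRNA genes, held neither, and neither did the 2 genes without a summit in the bases shown. Farther upstream, K07C5.18 held box A at -140 on the opposite strand. The intron of R151.11 starts 29 bases before the snoRNA, so most of its upstream bases shown lie outside that intron. The 2 genes of the 8 strongest peaks that are not shown, Y23H5B.10 and T19B4.8, rank between T03F7.8 and T06C12.16. In the 300 bases around its start Y23H5B.10 held neither box, and T19B4.8 held box A only, at -56. The first 90 bases shown for C51F7.3 overlap a second snoRNA gene, C51F7.4.

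A summit of the list from both replicates lay within 250 bp of the body of 94 of the 346 snoRNA genes (27.2%, 95% Wilson interval 22.8 to 32.1). The background for this distance was 3.49% of 19973 protein-coding gene starts, measured from the start rather than the body. Measured from the start as well, 91 of 346 snoRNA genes had a summit (26.3%). Replicate 1 alone placed a summit at 82 snoRNA genes (23.7%) against 2.65% of coding starts, and replicate 2 alone placed one at 75 (21.7%) against 1.62%. The stricter joint list placed one at 80 (23.1%) against 1.89%. In every list the snoRNA share was many times that of coding starts. The 94 genes drew on 93 peaks, because C51F7.3 and C51F7.4 shared 1. Nearest to the 250 bp limit were F58D5.12 and F54E7.10, at 241 and 244 bp from their summits, and just outside were K02F3.15 and C34E11.20, at 255 and 272 bp. With a limit of 500 bp, 115 genes had a summit, and no background was computed for that limit. All intervals on shares cover counting over genes only, and those on differences were not adjusted for their number, 18 for positions and classes and 40 for motifs.

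The share with a summit was 40 of 169 among intronic snoRNA genes (23.7%, 95% Wilson interval 17.9 to 30.6), 44 of 124 among those between genes (35.5%, 27.6 to 44.2) and 10 of 53 among those overlapping an exon (18.9%, 10.6 to 31.4). The intronic share was 11.8 points below the share between genes (difference -11.8 points, 95% Newcombe interval -22.3 to -1.32). In replicate 1 the difference was -5.74 points (-15.9 to 4.19) and in replicate 2 it was -9.88 points (-19.8 to -0.190), so it passed in the joint list and in replicate 2 but not in replicate 1. Among snoRNA genes with no coding start and no small RNA gene of another type within 500 bp the difference was -2.69 points (-14.9 to 9.21). Intronic genes with a summit had a median joint signal of 229, and those between genes had a median of 189, against 103 for all nuclear peaks of that list. Both class medians were above the median of the list.

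**Figure D1:**
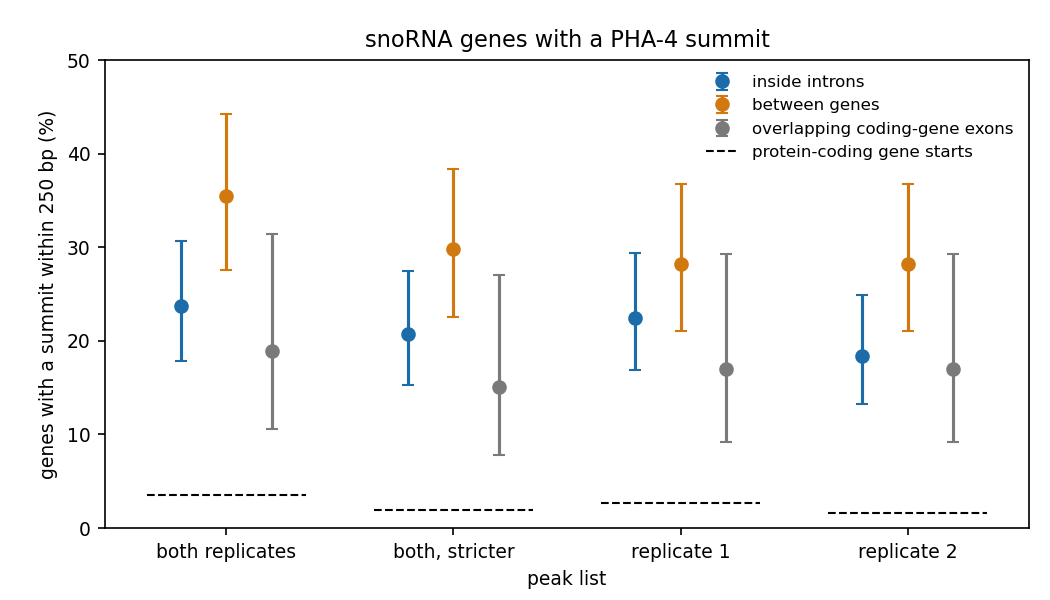
Share of snoRNA genes with a summit within 250 bp (%, y axis) by peak list (x axis: joint, stricter joint, replicate 1, replicate 2), with colours for the class, 95% Wilson intervals as bars and dashed lines for protein-coding gene starts. In the joint list the intronic, between-genes and exon-overlapping classes stood at 23.7%, 35.5% and 18.9%, all far above the 3.49% of protein-coding gene starts.

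Among the intronic genes, ZK994.7 had the highest signal of any snoRNA gene. It lies in an intron of pxn-1, which encodes the extracellular matrix peroxidase peroxidasin, 231 bases after the start of a 341-base intron. Its signal was 644 in replicate 1, 184 in replicate 2 and 829 in the joint list, where 99.8% of nuclear peaks were weaker. The summit lay 26 bp upstream of the snoRNA start in replicate 1 and 33 bp upstream in replicate 2. It was 5656 bp from the start of pxn-1 itself. C51F7.3, in an intron of frm-7, which encodes a FERM domain protein, had 511 in replicate 1, 188 in replicate 2 and 721 in the joint list. C51F7.4, which overlaps a frm-7 exon and is named after its values were seen, has the same peak, whose summit lies inside it at 21 bp from its start. Reads at this pair cannot be assigned to either gene.

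T03F7.8 lies on the strand opposite to its host cutl-18, a cuticlin-like gene, and had 421 in replicate 1, 113 in replicate 2 and 541 in the joint list. F55A11.10, in F55A11.6, had 308, 116 and 428 in the same lists. ZK484.9, opposite to the ABC transporter gene haf-9, had 254, 120 and 389. Summits of these 3 genes lay 15 to 58 bp upstream in the joint list, and both replicates placed them upstream too. D1046.6, in the pre-mRNA cleavage factor gene cfim-2, had 232 in replicate 1, 134 in replicate 2 and 374 jointly. C27H6.5, in unc-41, which acts in synaptic vesicle recycling, had 257, 99.5 and 352. M106.6, in mix-1, which encodes an SMC subunit of condensin and of the dosage compensation complex, had 235.2, 88.4 and 314. Of the 12 strongest intronic genes, 10 had a summit in both replicate lists and 10 had their joint summit 1 to 100 bp upstream. Of the others among the 12, C10C6.8 in catp-8, a cation-transporting ATPase gene, had 267 in replicate 1 and 327 jointly, and no summit in the replicate 2 list. B0334.12, opposite to the potassium channel gene twk-5, had 275, 107 and 385, with its summit 132 bp downstream of the snoRNA start. F54E7.10 and C27H5.9 are described with their hosts.

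Between genes, W03C9.9 on chromosome II had 456 in replicate 1, 262 in replicate 2 and 712 in the joint list. Y23H5B.10 had 368, 149 and 510, and T19B4.8 had 377, 112 and 482. Their joint summits lay 59, 55 and 50 bp upstream of the start. T06C12.16 had 332, 113 and 446 with its summit 51 bp upstream, and ZK265.10 had 300.4, 118 and 413 with its summit 67 bp upstream. Y75B12B.12 had 293, 110 and 415, 7 bp upstream. All 12 of the strongest genes between genes had a summit in both replicate lists, and 10 had it 1 to 100 bp upstream in the joint list. W06H8.17 stood apart: its summit lay 199 bp upstream, next to the start of the coding gene W06H8.6, and its signal was 182 in replicate 1, 211 in replicate 2 and 387 jointly. C53B7.8, the only X-linked gene among the 12, had 201, 58.6 and 262 with its summit 17 bp inside the gene. H09I01.2, F59C6.15, F32E10.10 and F30H5.4 completed the 12 with joint signals of 270.03 to 337.5. On chromosome X, 4 of 33 snoRNA genes had a summit (12.1%, 95% Wilson interval 4.82 to 27.3), and on chromosome V 22 of 55 did (40%, 28.1 to 53.2). These were the lowest and highest shares. Chromosomes I to IV had 20 of 74 (27.0%), 22 of 71 (31.0%), 9 of 54 (16.7%) and 17 of 59 (28.8%). No background share per chromosome was computed, and differences between chromosomes were not tested.

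Most summits sat just before the snoRNA gene. Along the strand of the gene, the median offset of the 94 strongest summits was -31 bp (quartiles -55.75 to 2.5), and 64 lay 1 to 100 bp upstream, 20 in the gene body, 6 downstream and 4 farther upstream. A summit 1 to 100 bp upstream was thus found at 64 of 346 snoRNA genes (18.5%), against 0.926% of coding starts. Of the intronic genes with a summit, 28 of 40 had it in this stretch, and so did 31 of the 44 between genes, a difference of -0.455 points (95% Newcombe interval -19.6 to 18.5). The interval includes 0 and allows differences of close to 19.6 points. The upstream placement was seen in both classes. Of the 10 exon-overlapping genes with a summit, 5 had it in this stretch, and their median offset was -10.5 bp. The replicate lists gave median offsets of -31 and -33 bp.

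**Figure D2:**
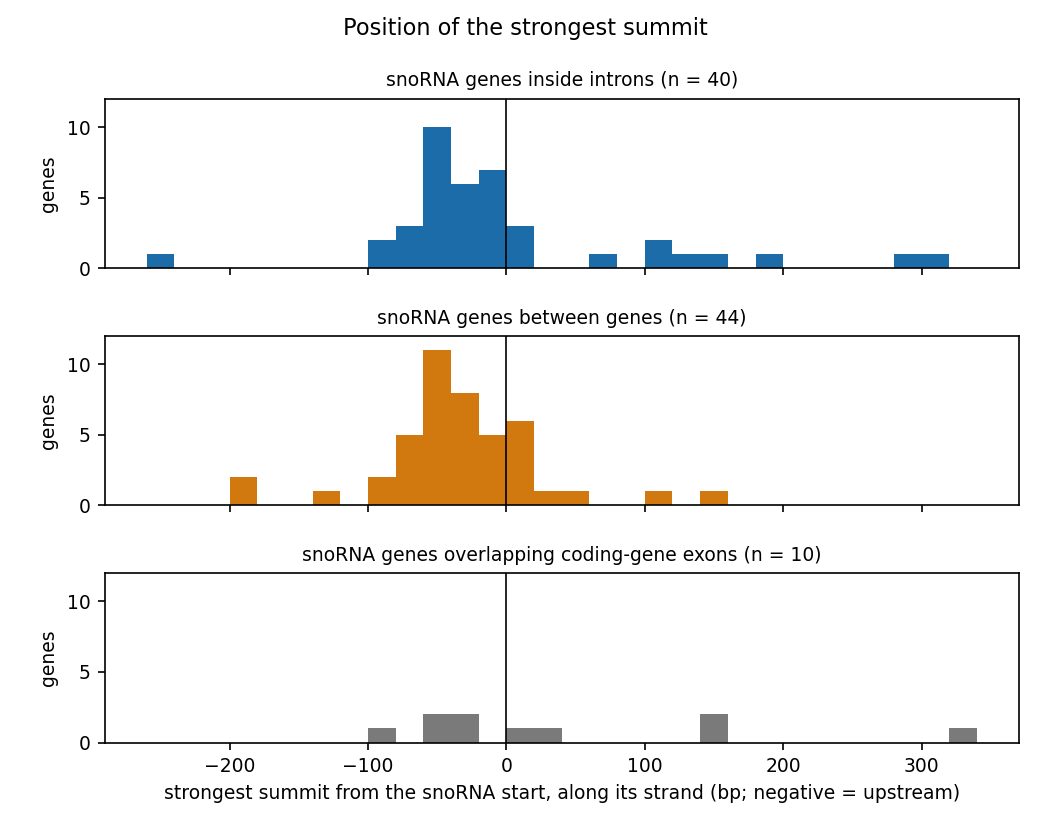
Offset of the strongest summit from the snoRNA start along the strand of the gene (bp, x axis) against the number of genes (y axis), with 1 panel each for intronic genes, genes between genes and genes overlapping an exon, in the joint list. In the first 2 panels most summits fall 1 to 100 bp before the start, 28 of 40 in introns and 31 of 44 between genes.

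This placement differed from that at tRNA genes and at small nuclear RNA genes. At tRNA genes, whose box A and box B are internal, 403 of 612 had a summit and the median offset was 16 bp, inside the gene. Upstream summits made up 72.3% at snoRNA genes and 24.1% at tRNA genes, a difference of 48.3 points (95% Newcombe interval 37.5 to 57.2). The interval treats genes as independent, and how many distinct peaks the tRNA genes drew on was not counted. At small nuclear RNA (snRNA) genes, which encode spliceosomal and related RNAs, 30 of 129 had a summit, the median offset was 22.5 bp and 30.0% of summits were upstream. The snoRNA share upstream was 42.3 points higher than that of snRNA genes (21.96 to 57.9), while the share of genes with a summit differed by 3.91 points (-5.23 to 12.03).

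The replicates placed the same summits at most of these genes. Of the 94 genes, 65 had a summit in both replicate lists, 13 in replicate 1 only, 7 in replicate 2 only and 9 in neither. The 65 were 79.3% of the genes called in replicate 1 and 86.7% of those called in replicate 2. The 94 come from a list made from both replicates, which favours agreement among them. Matching shares over all nuclear peaks were not computed, so this agreement cannot be called particular to snoRNA genes. At these 65, the replicate summits lay a median of 24 bp apart (quartiles 8 to 36), and 56 lay within 50 bp. Their signals had a Pearson correlation of 0.650 on the log2 scale and a Spearman correlation of 0.636, given as a description over 65 genes that share 2 libraries. Of the 64 genes with a summit 1 to 100 bp upstream, 50 were in both replicate lists.

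**Figure D3:**
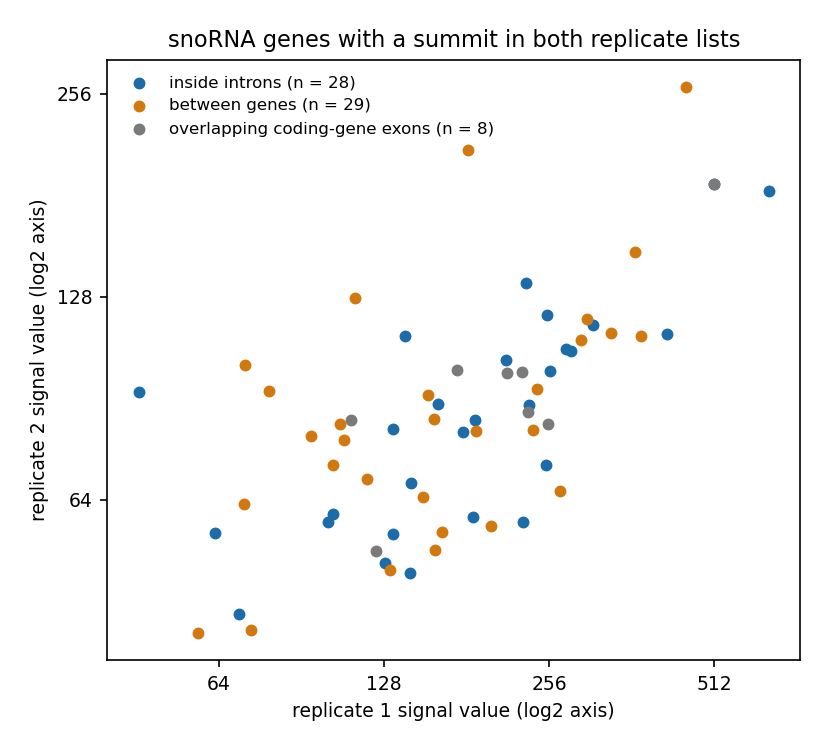
Signal of the strongest summit in replicate 1 (x axis) against replicate 2 (y axis), both on log2 axes in the authors' units, for the 65 snoRNA genes with a summit in both lists, marked by class. The scales are set per list, so only the order within a replicate can be read, and the Pearson correlation was 0.650.

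Genes seen in 1 replicate list included, from introns, T24H7.6 in T24H7.2 (97.0 in replicate 1) and W04D2.7 in the innexin gene inx-11 (63.9 in replicate 2). Between genes they included Y39G10AR.24 (190.5 in replicate 1, 227 jointly), F09G2.14 (117 in replicate 1), M03D4.78 (69.6 in replicate 2) and T21B4.20 (55.9 in replicate 2). The strongest of the genes called in 1 replicate list only were C10C6.8, F54E7.10 and Y39G10AR.24. The deposited lists of all ranked candidate peaks go below the threshold. In replicate 1, 92 of the 94 genes had a ranked peak with a median signal of 136, and in replicate 2, 90 had one with a median of 69.2. Of the 252 snoRNA genes without a joint summit, 156 had a ranked peak in replicate 1, with a median signal of 24.7. In replicate 2 a ranked peak was present at 105, with a median of 15.6. All nuclear ranked peaks, 84912 and 47072, had medians of 18.6 and 11.6, but the gene values take only the strongest peak within 250 bp. The share of coding starts with a ranked peak was not computed, so these counts cannot be called particular to snoRNA genes. The irreproducible discovery rate (IDR) measures how well peak ranks repeat between data sets. Its −log10 had a median of 4.12 at genes with a summit and of 0.184 at genes without in replicate 1, and of 3.45 and 0.180 in replicate 2. The list that defines a summit was itself thresholded by IDR. These contrasts in ranked signal and IDR therefore follow in large part from that filter and only describe the genes.

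The hosts of the 40 intronic genes with a summit were 40 different genes of mixed function. Besides those named above, rps-12 and pdl-1, they included fars-1 (phenylalanyl-tRNA synthetase), hsp-1 (an Hsp70 chaperone), unc-70 (beta-spectrin), cng-3 (a cyclic nucleotide-gated channel), rol-3 (a receptor tyrosine kinase-like protein), ncx-7 (a sodium-calcium exchanger), cogc-3 (a Golgi complex subunit), rbm-34 (an RNA-binding protein), lagr-1 (a ceramide synthase-related gene), mnk-1 (a MAP kinase-interacting kinase) and sre-45 (a serpentine receptor). The others were acsd-1, elf-1, madf-11, mltn-9, pcyt-2.1, plpr-1, ppat-1, C08D8.1, C33A12.3, F01D5.10, W08G11.3, Y38F2AR.12, Y43F8C.7, Y55F3BR.2 and ZK185.2. A promoter window, from 1000 bp upstream to 500 bp downstream of a coding start, held a summit at 7.15% of all coding genes and at 36 of the 149 hosts (24.2%). Only 3 of the 40 intronic snoRNA summits lay in the promoter window of the host, those of F54E7.10 in rps-12, C27H5.9 in pdl-1 and B0334.12 in twk-5. The other 37 lay outside it, and 27 of them 1 to 100 bp upstream of the snoRNA. Of 28 hosts with a snoRNA summit that close upstream, 6 had a summit in their own promoter window. At pdl-1, 1 of these 6, the strongest promoter summit was the snoRNA summit itself. That was also so at rps-12 and twk-5, which are not among the 6, and all 3 are counted among the 36 hosts. For comparison, 0.819% of 109516 intron midpoints of coding genes lay within 250 bp of a summit, and 23.7% of the intronic snoRNA genes did. The latter share is measured from the snoRNA body, and measured from the snoRNA start 38 of 169 did.

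C27H5.9, opposite to pdl-1, a PDE6 delta-like gene, had 280.2 in replicate 1, 106 in replicate 2 and 364 in the joint list, with its summit 29 bp upstream of the snoRNA and 306 bp downstream of the pdl-1 start. A second snoRNA gene of pdl-1, C27H5.10, lay 312 bp from the same peak and was not counted. F54E7.10 in rps-12, a small-subunit ribosomal protein gene, had 196 in replicate 1, no summit in replicate 2 and 314 jointly. Its summit lay 244 bp before the snoRNA and 164 bp upstream of the rps-12 start. Neither peak can be assigned to the snoRNA rather than to the host start by distance alone.

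The 3 hosts with the most snoRNA genes had no summit at them. All 4 snoRNA genes of nol-56, which itself encodes a core protein of box C/D particles, were without a summit, among them K07C5.18, K07C5.10 and K07C5.12. So were the 3 of rpl-6, a large-subunit ribosomal protein gene (R151.11, R151.12 and R151.13), and the 3 of top-2, which encodes DNA topoisomerase II. The pairs in 11 further hosts lacked one as well: Y37E3.8, air-1 (Aurora kinase), akir-1 (akirin), cdc-48.1 (an AAA ATPase), eef-1G (a translation elongation factor), klp-19 (a kinesin), prp-8 (a spliceosome protein), rpl-15, rpl-7A, rps-29 and ubl-1. Of these 14 hosts, 7 had a summit in their own promoter window, with a joint signal of 131 at nol-56, 79.9 at rpl-6, 565 at cdc-48.1, 276 at eef-1G, 696 at rpl-15, 467 at rpl-7A and 78.7 at ubl-1. The other 7 had none, and the share over all coding genes was 7.15%. In hosts of 2 or more snoRNA genes, 2 of 36 snoRNA genes had a summit (5.56%), against 38 of 133 in hosts of 1 (28.6%), a difference of -23.0 points (95% Newcombe interval -32.1 to -8.62). In ribosomal protein hosts, taken by symbol (rpl, rps, rla and ubl-1), 1 of 21 had a summit (4.76%), the rps-12 case above, against 39 of 148 in other hosts (26.4%), a difference of -21.6 points (-30.2 to -2.56). For a summit 1 to 100 bp upstream the counts were 0 of 21 and 28 of 148, a difference of -18.9 points (-26.0 to -2.51). For 0 of 21 the Wilson upper limit is 15.5%, and 3 genes, the usual limit for a count of 0, would be 14.3%. Both groupings of hosts were made after the values were seen, and they share genes. The 36 genes lie in 16 hosts and the 21 in 14, and some of the 36 share an intron, as at top-2. The intervals treat such genes as independent, so they are too narrow to the extent that neighbours share a call. A promoter summit was present at 10 of the 14 ribosomal protein hosts, against 7.15% of all coding genes and 24.2% of all hosts. At rps-12, 1 of the 10, it was the peak counted for F54E7.10.

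Few intronic snoRNA genes with a summit lay close to the upstream edge of their intron. The stretch from the intron start to the snoRNA, in the direction of the snoRNA, had a median of 186.5 bases (quartiles 120 to 417.25) in genes with a summit and 136 bases (35 to 703) in those without, so the upper quartile ran the other way. It was at least 70 bases at 36 of 40 genes with a summit and at 77 of 129 without, with the 70-base limit chosen after the distances were seen. In ribosomal protein hosts the median was 29 bases, with a range of 6 to 72. Intron length had a median of 337.5 bases with a summit and 491 without. These distances were not tested, and their ranges overlap widely.

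**Figure D4:**
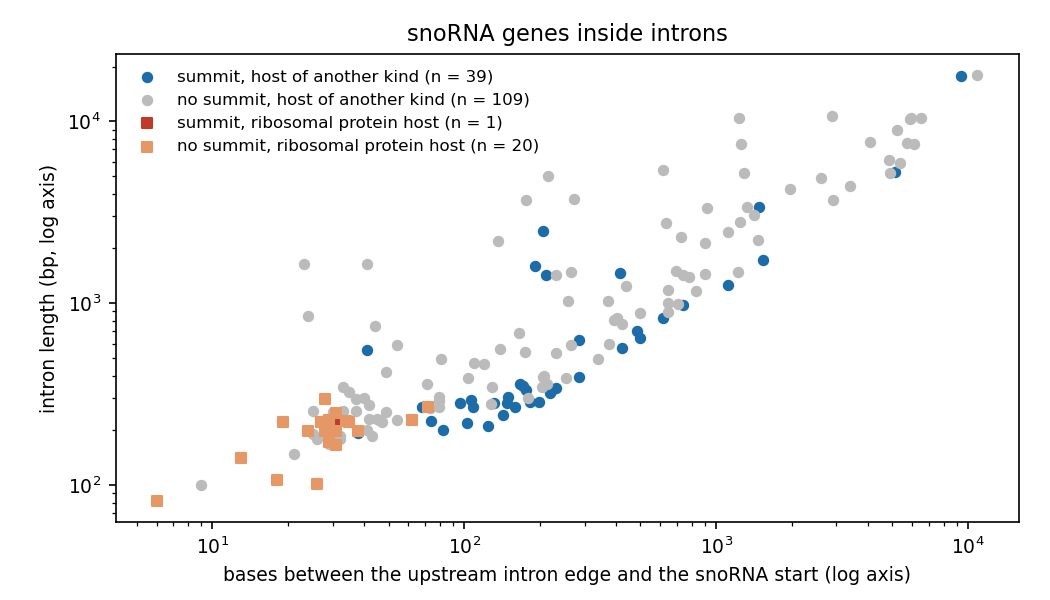
Intron bases upstream of each intronic snoRNA gene (x axis, log scale) against intron length (y axis, log scale), for genes with and without a summit, with squares for ribosomal protein hosts and circles for other hosts. Of the 40 genes with a summit, 36 have at least 70 bases before them, against 77 of 129 without.

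Strand within the host made no difference that passed. Of snoRNA genes on the strand of the host, 31 of 142 had a summit (21.8%), against 9 of 27 on the opposite strand (33.3%), a difference of -11.5 points (95% Newcombe interval -31.3 to 4.99). The type of snoRNA was read only from its letters, as TGATG in the first 15 bases or TGATGA in the first 25, with CTGA in the last 15, for C and D, or ACA 3 bases before the 3′ end. Genes with C and D letters had a summit at 12 of 24 (50%), and genes with ACA letters at 20 of 58 (34.5%), a difference of 15.5 points (-7.07 to 37.1). The remaining 264 genes matched neither, with 62 summits.

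Box letters were more frequent at genes with a summit. In the window from 250 bases before to 50 after the start, on either strand, box B-like GTTCGANNC was present at 19 of 94 genes with a summit (20.2%) and 8 of 252 without (3.17%), a difference of 17.0 points (95% Newcombe interval 9.55 to 26.4). All protein-coding start windows of the same length held it at 1.58%. Box A-like TGGCNNAG was present at 28 of 94 genes with a summit (29.8%) and 35 of 252 without (13.9%), a difference of 15.9 points (6.30 to 26.5), against 7.11% of coding windows. Among intronic genes the differences were 19.4 points for box B (8.22 to 34.5) and 22.6 points for box A (8.05 to 38.8). Between genes they were 10.9 points for box B (0.184 to 24.7) and 6.25 points for box A (-8.13 to 22.3), so box A did not pass there. The same letters read backwards, which keep the composition, gave -3.57 points for box B (-6.65 to 0.700) and -0.0929 points for box A (-5.56 to 7.52).

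The matches fell in a narrow stretch. On the snoRNA strand, box A-like letters began 80 to 45 bases before the start at 20 of 94 genes with a summit (21.3%), at 5 of 252 without (1.98%) and at 0.330% of coding starts. Box B-like letters began 30 to 5 bases before the start at 15 of 94 (16.0%), at 2 of 252 (0.794%) and at 0.0451% of coding starts. Median first bases at genes with a summit were -58.5 for box A and -14 for box B. Both boxes in place occurred at 8 genes with a summit and 1 without. The 8 were F55A11.10, T24H7.6 and Y43F8C.22 in introns, W03C9.9, Y39G10AR.24, F32E10.10 and T10B9.11 between genes, and ZK546.18 over an exon. In these 8 the first bases of the boxes were 43 to 52 bases apart, and the summit lay 15 to 63 bp upstream of the snoRNA. The exception without a summit was Y59E1B.14 on chromosome X, with a spacing of 44 bases. These ranges were chosen after the positions had been seen, so the shares are a description.

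**Figure D5:**
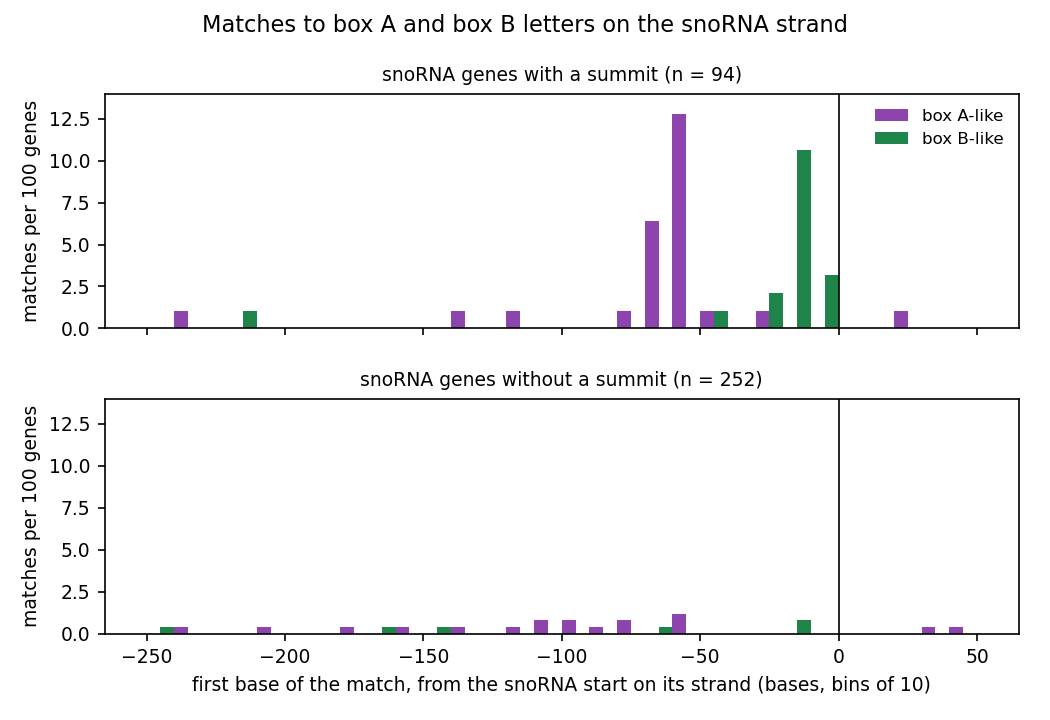
First base of box A-like and box B-like matches on the snoRNA strand, relative to the snoRNA start (bases, x axis), as matches per 100 genes (y axis), for genes with a summit (upper panel) and without (lower panel). With a summit, box A clusters near a median of -58.5 and box B near -14 within the counted ranges, and few matches fall there without one.

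Letters of 2 forkhead motifs were searched in the same windows. TGTTTAC was present at 1 of 94 genes with a summit (1.06%) and 10 of 252 without (3.97%), a difference of -2.90 points (95% Newcombe interval -6.20 to 2.15), against 4.77% of coding windows. TGTTTGC was present at 11 of 94 (11.7%) and 12 of 252 (4.76%), against 7.42% of coding windows. The difference was 6.94 points (0.874 to 15.2), which passed over all snoRNA genes. It passed in neither class taken alone, at 6.12 points among intronic genes (-1.64 to 19.4) and 8.41 points between genes (-2.83 to 22.5). ZK994.7, the strongest gene, held TGTTTGC with its first base at -31 on the opposite strand. The reversed TGTTTGC letters gave 1.35 points (-3.04 to 8.13).

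GC content moved with these results. The 100 bases upstream averaged 53.5% ± 8.24 GC at the 94 genes with a summit and 40.7% ± 8.80 at the 252 without (SD over genes), against 33.2% ± 8.27 at coding starts. Genes with a summit 1 to 100 bp upstream averaged 56.05% ± 5.57 (n = 64). Its part in the presence of summits was not tested. Among the 116 genes with at least 50% GC there, 70 had a summit and 46 did not, and box B-like letters were present at 18 of the 70 and 3 of the 46, a difference of 19.2 points (95% Newcombe interval 5.13 to 31.3).

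Summits were also present at snoRNA genes away from coding starts. With no small RNA gene of another type and no coding start within 500 bp, 71 of 264 snoRNA genes had a summit (26.9%). A coding start lay that close at 76 genes, of which 21 had a summit. A tRNA gene lay that close at only 2, C16D9.10 among them, whose joint signal was 115. Genes within 1000 bp of each other formed 321 groups, so most snoRNA genes stand alone, and no pair had identical bodies.

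The proteins that work with snoRNAs were looked at by their promoter windows, where 7.15% of coding genes had a summit. Of 10 listed genes for core proteins and assembly helicases, 5 had one. The helicase gene ruvb-1 had 154 in replicate 1, 83.2 in replicate 2 and 249 jointly, and it was the only one called in both replicate lists. The box C/D methyltransferase gene fib-1 had 97.6 in replicate 1 and 128 jointly, and nol-56 had 97.0 and 131, with no summit for either in replicate 2. The box C/D protein gene snu-13 (75.8) and the H/ACA protein gene nola-3 (9.91) had a summit only in the joint list. Both values were below the lower quartile of that list (80.3), and neither gene had a summit in the stricter list. No summit was found at nol-58, at the pseudouridine synthase gene dkc-1, at garr-1, at Y48A6B.3 or at ruvb-2.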

How the data were processed

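The authors deposited peak lists on ce11 for each replicate and for both together, ranked and thresholded by IDR. The deposited signal value is the caller's own, and the deposited ranked lists also give the −log10 of the IDR. Per the deposited notes, filtered alignments and a control file were used. The aligner is not given in the sources used here, nor are the caller and its settings. The less strict joint list was the main one. Genes came from Ensembl release 115 and sequence from RefSeq. For each gene the strongest summit within 250 bp of its body was taken. Shares have 95% Wilson intervals and differences 95% Newcombe intervals, and an interval without 0 was taken as passing. The code was tested on simulated data. Python 3.11.15, NumPy 2.4.6 and SciPy 1.17.1 were used. Nothing states whether the 2 replicates were separate cultures beyond the label of biological replicate.

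Members and lists were chosen with earlier results of these data known. Named genes were the 12 strongest intronic and 12 strongest between genes, hosts with a summit snoRNA, hosts with the most snoRNA genes, examples called in 1 replicate and members of large hosts without a summit. Chosen after seeing the data were the 1 to 100 bp upstream range, the box position ranges, the looser letters, the host groupings, the guide letters, the GC split at 50%, the 70-base intron limit, the intron-midpoint background, distance taken to the start, and counting of genes in an intron of at least 1 transcript. Alternatives were the stricter list, each replicate alone, distances of 100 and 500 bp, clustered genes counted once, and a shorter motif window. Others were genes away from neighbours (coding starts and small RNA genes of another type within 500 bp). A further one set same-strand intronic genes against those between genes that overlapped no other annotated gene.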

Additional observations from a re-analysis of the deposited data

How the results depend on the processing

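The share of snoRNA genes with a summit (27.2%) was 23.1% in the stricter list, 21.7% to 23.7% in the lists of single replicates, 24.9% within 100 bp, 33.2% within 500 bp, 29.0% with clustered genes counted once and 18.5% for summits 1 to 100 bp upstream, where fewer or more positions count by construction. The difference of intronic minus between genes (-11.8 points) kept its sign in all 11 alternatives. Its interval included 0 in the stricter list (-9.13), in replicate 1 alone (-5.74) and within 500 bp (-8.37). It also included 0 with clustered genes counted once (-9.77), for genes away from neighbours (-2.69) and for summits 1 to 100 bp upstream (-8.43). The interval left out 0 in the other 5 alternatives, replicate 2 alone (-9.88) among them. The cause was not tested, and the call depends on the list and on which genes are kept. The box B difference (17.0 points) kept its sign and passed in 12 of 14 alternatives, and the reversed letters used as controls gave -0.0929 (box A) and -3.57 (box B). The median offset (-31 bp) was -33 in the stricter list, -33 to -31 in single replicates and -28 away from neighbours. The same minus opposite strand difference stayed negative with an interval including 0 in all 8 alternatives. No paired analysis was possible because there was 1 group. With 2 replicates, unknown depth and no control reads analysed here, non-specific signal could not be assessed at any summit, strong ones with box letters and those at tRNA genes included.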
